A study of Mus musculus with 6 samples.

Results

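The genes described here are CD44 and the genes of hyaluronan synthesis, breakdown and binding, 10 of the 54429 genes in the count table. They were taken by symbol, and the choice was made with earlier results of these data known. They are the cell-surface receptor Cd44, the synthases Has1, Has2 and Has3, the hyaluronidases Hyal1 and Hyal2, and the hyaluronan-binding genes Lyve1, Stab1, Stab2 and Vcan. RNA-seq was done on 6 libraries of primary aortic endothelial cells (EC) from adult wild-type C57BL/6 mice, bought as isolated cells, 3 transduced with a lentiviral Meis1 vector (Meis1-OE) and 3 with the YFP control vector (YFP-CTRL). In both groups, EC were exposed to vector for 48 h, sorted at 72 h for YFP, CD31 and VEC, grown to confluency and then lysed, so all values are from cultured, sorted and expanded cells. Reads of the Meis1 vector and of the endogenous gene were not separated. The sources used here do not name the promoter of the vectors or the animals behind each library, and p-values measure the spread between these libraries. Libraries are named by the letters A to C of their columns.

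Hyaluronan is a long, unbranched sugar polymer of the extracellular matrix and of the endothelial glycocalyx. It is extruded through the plasma membrane by the Has synthases, cut by hyaluronidases at the cell surface and in lysosomes, and bound by receptors that share a link module, such as CD44 and LYVE1. CD44 mediates adhesion to hyaluronan and marks endothelium on the way to hematopoietic fate in the embryo. LYVE1 is best known from lymphatic vessels, and the scavenger receptors STAB1 and STAB2 from liver and spleen sinusoids, where STAB2 clears hyaluronan from the circulation.

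Depth ran from 34176642 to 47956605 counts per library. Meis1 was at 3220 ± 258 CPM (counts scaled to the TMM-normalized library size, SD, n = 3) in Meis1-OE and 1.48 ± 0.365 CPM in YFP-CTRL (SD, n = 3). The YFP-CTRL libraries differed among themselves in a score of 15 proliferation genes (the mean of log2(CPM + 1)), which was 4.39, 5.36 and 6.52 in YFP-CTRL A to C and 6.56 to 6.61 in Meis1-OE. As the Meis1-OE scores were close together and the highest, score and condition go together in part. Fits with this score as a term cannot fully separate them. Whether the score follows from Meis1 was not tested. The endothelial markers Pecam1 and Cdh5 were abundant in all libraries, with at least 26112 counts each. Pecam1 overlapped between conditions. Cdh5, which encodes VEC, was lower in every Meis1-OE library, at 1182, 1314 and 1452 CPM in A to C. It was at 2017, 2628 and 1784 CPM in YFP-CTRL A to C. Its log2 fold change was -0.70 (adjusted p = 0.0535, edgeR, and 0.00952 with DESeq2). Of the 10 genes, 9 passed edgeR's filter on low counts and were compared with the 16065 genes tested, and Has1 did not pass.

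Of the 9 tested genes, 1 was higher (Stab2) and 1 was lower (Lyve1) in Meis1-OE at an adjusted p under 0.05 (edgeR's quasi-likelihood test, Benjamini-Hochberg over all genes), while 7 did not pass. Over all genes tested, 4.14% were called higher, 2.73% lower and 6.87% in either direction. At an unadjusted p under 0.05 the same 2 genes passed, beside 12.8% of all genes higher and 13.4% lower. The libraries of the conditions did not overlap for 3 of the 9 genes, 2 higher (Stab2 and Cd44) and 1 lower (Lyve1), beside 17.2% and 15.9% of all genes (33.1% in either direction). The same 2 genes passed with DESeq2, where 6.18% and 6.13% of genes were called. The median log2 fold change of the 9 genes was 0.07, beside 0.01 for all genes tested. Without Meis1-OE B or C neither gene passed, in fits that called 0.798% and 0.875% of all genes in either direction. Without Meis1-OE A, Stab2 passed and Lyve1 did not, where 2.43% of all genes were called.

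**Figure D1:**
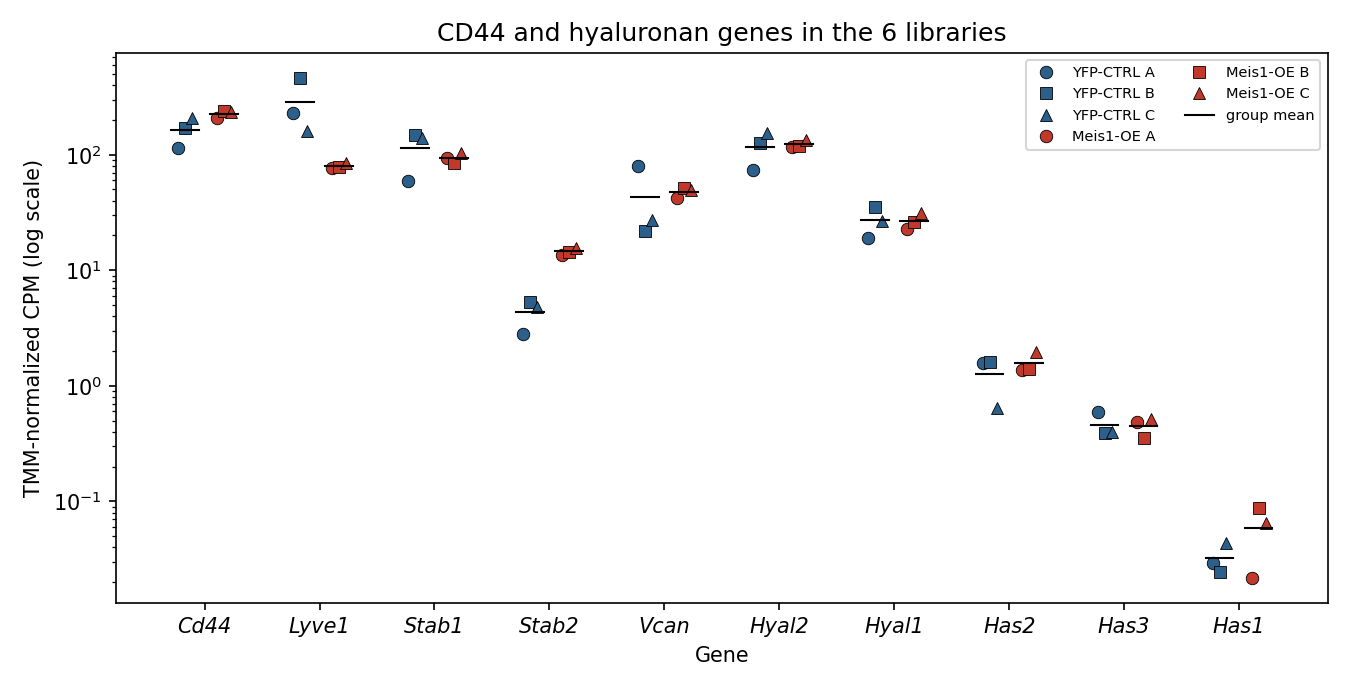
TMM-normalized CPM (log scale) of the 10 genes in each of the 6 libraries, with YFP-CTRL in blue, Meis1-OE in red, a symbol per column letter and a line at each group mean (n = 3). The 3 Meis1-OE libraries lie below all YFP-CTRL libraries for Lyve1 and above them for Stab2 and Cd44, and the groups overlap for the other genes.

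Stab2 (chr10:86841194-87008038), the clearance receptor, rose 3.38-fold. Its counts were 624, 659 and 728 in Meis1-OE A to C, and 95, 217 and 219 in YFP-CTRL A to C. In CPM these were 13.7, 14.5 and 15.7 against 2.80, 5.32 and 4.82. Every Meis1-OE library was thus well above every YFP-CTRL library, and among the latter A was the lowest. The log2 fold change was 1.76 (standard error 0.25, 95% interval 1.18 to 2.33, adjusted p = 0.0107, edgeR), and DESeq2 gave an adjusted p of 1.78e-08. Without Meis1-OE B or C the adjusted p from edgeR was 0.0644 or 0.0634, with log2 fold changes of 1.77 and 1.71. Fitted beside the proliferation score, the log2 fold change was 1.40 (adjusted p = 0.0383, edgeR), where 2.32% of all genes were higher and 1.9% lower. YFP-CTRL C, the 1 control library with a score close to those of Meis1-OE, had 4.82 CPM of Stab2. The part of the score in the result for Stab2 was not tested. The noncoding gene Gm16271, which overlaps Stab2, had at most 1 count.

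Lyve1 (chr7:110850607-110862953), the lymphatic and sinusoidal hyaluronan receptor, fell. It had 3477, 3538 and 3893 counts in Meis1-OE A to C, against 7813, 18822 and 7326 in YFP-CTRL A to C. The levels were 76.1, 77.9 and 84.1 CPM in Meis1-OE, and 230.0, 461 and 161 CPM in YFP-CTRL. The Meis1-OE libraries were close together and all under the lowest YFP-CTRL library, and YFP-CTRL B was the highest by far. Lyve1 was 3.58-fold lower in Meis1-OE (log2 fold change -1.84, standard error 0.36, 95% interval -2.68 to -0.999, adjusted p = 0.0301, edgeR), and DESeq2 gave an adjusted p of 1.08e-05. Without YFP-CTRL B the log2 fold change was -1.29 (adjusted p = 0.0366, edgeR). It did not pass without any single Meis1-OE library (adjusted p = 0.121, 0.149 and 0.131 without A to C) or when the proliferation score was a term of the fit (-1.49, adjusted p = 0.135, edgeR).

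Lyve1 was read in cells without most lymphatic markers. Prox1, the transcription factor of lymphatic identity, had at most 2 counts in any library. Pdpn, Mmrn1 and Ccl21a had 0 counts in all 6 libraries, Reln had at most 4, and Flt4, which vascular EC also express, was abundant (1708 to 6867 counts). Of the 10 macrophage markers, C1qa, C1qb, Tyrobp and Adgre1 had 0 counts in all libraries, Ptprc and Fcer1g had at most 4, and Mrc1 had 0 to 3 in Meis1-OE and 3, 9 and 51 in YFP-CTRL A to C. Mrc1 did not pass edgeR's filter on low counts. DESeq2 called it lower (log2 fold change -4.05, adjusted p = 0.0159), the 1 marker of this list that it called, beside 6.13% of all genes called lower. Csf1r and Lyz2 were counted at low levels, with 15, 26 and 18 counts of Csf1r in Meis1-OE A to C against 1, 4 and 12 in YFP-CTRL A to C, without overlap, and 6, 40 and 37 counts of Lyz2 against 8, 8 and 7. Both had a log2 fold change of 1.63 and did not pass (adjusted p = 0.148 and 0.181, edgeR; unadjusted p = 0.0310 and 0.0453). Summed over the list, macrophage markers were at 69.9 to 106 CPM in Meis1-OE and 65.2 to 140 CPM in YFP-CTRL, nearly all of it Cd68 (2198 to 5703 counts). Of the sinusoidal markers, Gata4 was lower in every Meis1-OE library, as was Lyve1, with 291, 295 and 322 counts in Meis1-OE A to C against 457, 499 and 367 in YFP-CTRL A to C. Its log2 fold change was -0.77 (adjusted p = 0.0729, edgeR; 0.0168 with DESeq2). Fcgr2b (152 to 241 counts) and Oit3 (54 to 97) overlapped between conditions, and Clec4g had at most 1 count. The 4 sinusoidal markers summed to 12.2 to 13.6 CPM in Meis1-OE and 15.1 to 20.9 CPM in YFP-CTRL. The 6 lymphatic markers summed to 100.2 to 106 CPM and 50.3 to 151 CPM, nearly all of it Flt4. The part of these cell types in the results for Lyve1 and Stab2 was not tested. In bulk RNA, fewer cells of a type and less RNA per cell cannot be told apart.

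Stab1 (chr14:31139017-31168651), the paralog of Stab2, did not pass the test. Its levels were 93.9, 84.5 and 103 CPM in Meis1-OE A to C and 59.3, 147 and 138 CPM in YFP-CTRL A to C. The groups overlapped, with YFP-CTRL A as the lowest library and YFP-CTRL B and C as the highest. The log2 fold change was -0.30 (95% interval -1.03 to 0.44, adjusted p = 0.590, edgeR). Without YFP-CTRL A it was -0.62, and Stab1 then passed as lower (adjusted p = 0.0360, edgeR). Fitted beside the proliferation score it was -0.86 (adjusted p = 0.164, edgeR).

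Ratios of these receptors were taken within each library. There were 5.35 to 5.57 Lyve1 counts for each Stab2 count in Meis1-OE and 33.5 to 86.7 in YFP-CTRL. Stab1 counts for each Stab2 count were 6.41 ± 0.538 (SD, n = 3) and 25.9 ± 4.08 (SD, n = 3). The ratio of Lyve1 to Stab1 was 0.850 ± 0.0623 in Meis1-OE and 2.73 ± 1.40 in YFP-CTRL (SD, n = 3 each). None of these ratios overlapped between conditions, and an exact two-sided permutation test gave p = 0.1 for each of the 3, the smallest value that 3 libraries against 3 allow. The ratios rest on the same counts as the tests above and are no further support for them. As Lyve1 was lower and Stab2 higher in every Meis1-OE library, their ratio could not overlap.

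The sequence before the gene is shown for 3 of these receptors, since Meis1 is a DNA-binding factor and Stab2 and Stab1 differed in whether they passed the test. RefSeq promoter windows (build GRCm38.p6, which is mm10, 250 bases before to 50 after a transcript start) were found for 7 of the 10 genes, all but Has2, Has3 and Lyve1. The letters TGACAG, the core that Meis factors are known to bind, were searched on both strands and are in capitals (CTGTCA where on the opposite strand). Each line gives only the bases upstream of the whole annotated gene, 5' to 3' on the strand of the gene, which are 154 bases for Stab2 (chr10:87008039-87008192), 240 bases for Stab1 (chr14:31168652-31168891) and 246 bases for Cd44 (chr2:102901670-102901915), all on the minus strand.
Stab2: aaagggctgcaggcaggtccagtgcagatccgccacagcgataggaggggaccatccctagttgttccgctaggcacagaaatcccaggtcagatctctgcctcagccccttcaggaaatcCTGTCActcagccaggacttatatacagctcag
Stab1: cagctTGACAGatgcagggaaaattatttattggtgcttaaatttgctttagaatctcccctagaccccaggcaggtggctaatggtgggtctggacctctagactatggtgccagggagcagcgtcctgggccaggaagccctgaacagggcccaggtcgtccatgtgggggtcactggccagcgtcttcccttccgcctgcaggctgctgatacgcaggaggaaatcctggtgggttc
Cd44: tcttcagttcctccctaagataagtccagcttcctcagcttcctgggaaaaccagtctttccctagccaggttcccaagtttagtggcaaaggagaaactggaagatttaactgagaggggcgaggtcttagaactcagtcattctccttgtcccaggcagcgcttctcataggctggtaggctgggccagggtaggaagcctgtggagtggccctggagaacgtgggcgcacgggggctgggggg

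TGACAG was present in 3 of the 7 windows (Stab2, Stab1 and Hyal1), and in 19.2% of all 32851 windows of this length. The longer form TGACAGNT, which contains that core, was present for Stab1 and Hyal1 (2 of 7, and 5.02% of all windows). The joint Pbx-Meis element and the Hox-Pbx form TGATTGAT were in 0 of 7 (0.222% and 0.746% of all windows). In the Stab2 window the core began 129 bases before the start, on the opposite strand. The windows of Stab1 and Hyal1, which did not pass the test, held these letters too.

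The Meis1-OE libraries all lay above the YFP-CTRL libraries for Cd44, which did not pass the threshold. Its counts were 9580, 10849 and 10800 in Meis1-OE A to C and 3862, 6901 and 9436 in YFP-CTRL A to C. In CPM the lowest Meis1-OE library (A, 209.6) and the highest YFP-CTRL library (C, 207.7) were nearly equal, while YFP-CTRL A was at 114. The log2 fold change was 0.47 (standard error 0.21, 95% interval -0.02 to 0.97, adjusted p = 0.204, edgeR), and DESeq2 gave an adjusted p of 0.234.
Within YFP-CTRL, Cd44 followed the proliferation score, from 114 CPM at a score of 4.39 to 208 CPM at 6.52. With that score as a term of the fit the log2 fold change of Cd44 was 0.05 (adjusted p = 0.877, edgeR). Without YFP-CTRL C, Cd44 passed as higher (0.67, adjusted p = 0.0345, edgeR), in a fit that called 16.5% of all genes higher and 15.2% lower. The gene spans chr2:102811141-102901669, and its splice forms were not counted separately.
The genes whose log2(CPM + 1) across the 6 libraries was most like that of Cd44, among 10222 genes with a mean of at least 5 CPM, were H2afv, Msrb1, Tmem184c, Crybg3 and Klhl5 (Pearson correlations of 0.997, 0.997, 0.997, 0.996 and 0.996). The 6 points share libraries and conditions, so this is a description of likeness. Of these, H2afv encodes a histone variant and Msrb1 a methionine sulfoxide reductase, and their log2 fold changes were 0.50 and 0.53, with adjusted p-values of 0.258 and 0.231 (edgeR).

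**Figure D2:**
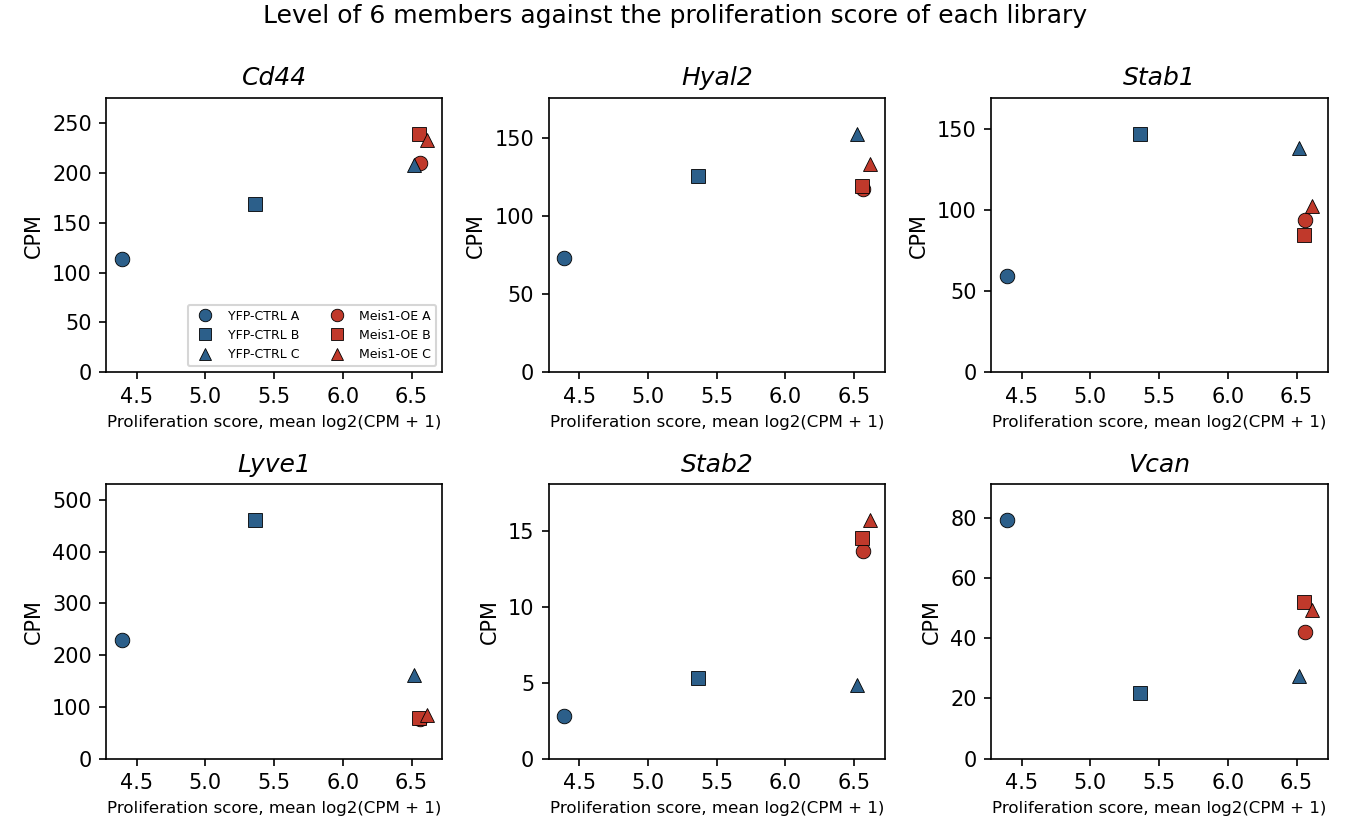
CPM of Cd44, Hyal2, Stab1, Lyve1, Stab2 and Vcan (vertical axes, from 0) against the proliferation score of each library (horizontal axes, mean log2(CPM + 1) of 15 genes), with YFP-CTRL in blue and Meis1-OE in red. YFP-CTRL C has a score of 6.52, close to the 3 Meis1-OE libraries. Its Cd44 is near theirs, its Lyve1 (161 CPM) is above and its Stab2 (4.82 CPM) below them, values of 1 library.

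Hyaluronan synthases were low in all libraries. Has2 (chr15:56665627-56694546), the main synthase of vascular development, had 62, 64 and 90 counts in Meis1-OE A to C and 53, 65 and 29 in YFP-CTRL A to C, with overlapping groups. Its log2 fold change was 0.32 (95% interval -0.58 to 1.22, adjusted p = 0.638, edgeR), and 1.08 with the proliferation score in the fit (adjusted p = 0.230). Has3 (chr8:106870242-106882902) had 16 to 24 counts per library in both conditions, a log2 fold change of -0.02 (95% interval -0.79 to 0.75, adjusted p = 0.983, edgeR). Has1 (chr17:17833691-17855589) had 1, 4 and 3 counts in Meis1-OE and 1, 1 and 2 in YFP-CTRL, mostly within the floor of 3 counts, and a difference was not detectable at this depth. Has2os, the antisense transcript that overlaps Has2, had at most 4 counts.

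The hyaluronidases were well counted and did not pass the test. Hyal2 (chr9:107567873-107572778), a surface-anchored enzyme that cuts large hyaluronan, was at 117, 120 and 134 CPM in Meis1-OE A to C and at 73.1, 126 and 153 CPM in YFP-CTRL A to C. YFP-CTRL held both the lowest and the highest library. The log2 fold change was 0.07 (95% interval -0.51 to 0.66, adjusted p = 0.882, edgeR), and with the proliferation score in the fit it was -0.43 (adjusted p = 0.173). Hyal1 (chr9:107576950-107581699), the lysosomal enzyme, was at 22.7 to 31.3 CPM in Meis1-OE and 18.9 to 35.1 CPM in YFP-CTRL, a log2 fold change of -0.01 (95% interval -0.56 to 0.54, adjusted p = 0.984, edgeR). Hyal1 and Hyal2 are neighbours on chromosome 9, and Hyal1 overlaps Hyal3 by 404 bases and Naa80 by 1031 bases, so part of its reads may be shared.

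Vcan (chr13:89655309-89743027), which encodes the hyaluronan-binding proteoglycan versican, varied most among the control libraries. It was at 42.1, 52.0 and 49.3 CPM in Meis1-OE A to C and at 79.3, 21.9 and 27.5 CPM in YFP-CTRL A to C. The Meis1-OE libraries lay between YFP-CTRL A and the other YFP-CTRL libraries. The log2 fold change was 0.16 (95% interval -0.90 to 1.22, adjusted p = 0.862, edgeR), and without YFP-CTRL A it was 0.94, past the threshold (adjusted p = 0.0210, edgeR). It was -0.15 without YFP-CTRL B and -0.08 without C, and 1.11 with the proliferation score in the fit (adjusted p = 0.185). Gm4117, a noncoding gene that overlaps Vcan by 9331 bases, had 1652 to 2447 counts per library (Vcan had 895 to 2693), and as the use of strand is not given their reads cannot be told apart in the overlap.

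**Figure D3:**
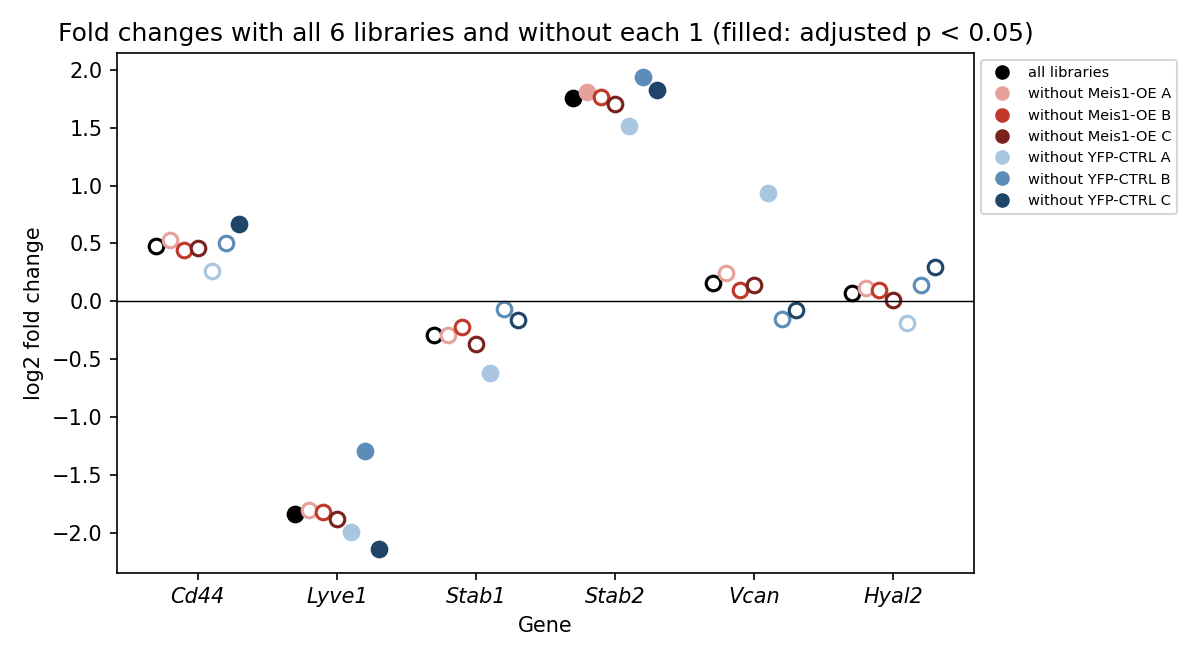
Log2 fold changes (Meis1-OE over YFP-CTRL) of 6 genes with all 6 libraries (black) and without each library in turn; filled symbols have an adjusted p under 0.05 from edgeR. Stab2 (1.51 to 1.94) and Lyve1 (-2.14 to -1.29) keep their sign in all 6 fits, Cd44 passes only without YFP-CTRL C, Stab1 and Vcan only without YFP-CTRL A, and Vcan and Hyal2 change sign.

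In the fits without 1 library, the share of all genes called higher and lower moved as well. It was 2.02% and 0.417% without Meis1-OE A, 0.701% and 0.0975% without B, and 0.766% and 0.109% without C. It was 3.73% and 2.63% without YFP-CTRL A, 1.24% and 0.401% without B, and 16.5% and 15.2% without C.

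Levels were also compared between genes per kb of merged exons (GENCODE vM1, an annotation of the older build NCBIM37, used for lengths only). In YFP-CTRL, Lyve1 was the highest at 109 ± 60.3 CPM per kb (SD, n = 3), followed by Hyal2 (62.0 ± 21.4), Cd44 (23.9 ± 6.89), Stab1 (11.2 ± 4.71), Hyal1 (7.09 ± 2.12), Vcan (2.96 ± 2.19) and Stab2 (0.492 ± 0.153). The synthases came last, with Has2 at 0.298 ± 0.128, Has3 at 0.0776 ± 0.0190 and Has1 at 0.0156 ± 0.00485. Lyve1 and Hyal2, Stab1 and Hyal1, Hyal1 and Vcan, and Stab2 and Has2 overlapped over the YFP-CTRL libraries, and the other neighbours did not.
In Meis1-OE, Hyal2 came first (65.3 ± 4.68 CPM per kb, SD, n = 3), then Cd44 (33.2 ± 2.28) and Lyve1 (30.4 ± 1.60), whose ranges overlapped, then Stab1 (9.11 ± 0.882), Hyal1 (7.04 ± 1.14), Vcan (3.31 ± 0.352) and Stab2 (1.67 ± 0.119). Stab1 and Hyal1 overlapped there as well. Thus Lyve1 was first in YFP-CTRL and came after Hyal2 and Cd44 in Meis1-OE, while Stab2 kept its place and was above Has2 in every Meis1-OE library.

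The wider pathway was read from 62 other genes, of which 35 were tested and 21 had at most 3 counts in every library. At an adjusted p under 0.05, 1 was higher and 1 was lower in Meis1-OE (edgeR), beside 4.14% and 2.73% of all genes; DESeq2 gave 3 and 3. The median log2 fold change was 0.10, beside 0.01 for all genes. Without YFP-CTRL C the counts were 6 higher and 5 lower, in a fit that called 16.5% of all genes higher and 15.2% lower. They were 0 and 0 without any single Meis1-OE library, where 0.701% to 2.02% of all genes were higher and 0.0975% to 0.417% lower. The counts were also 0 and 0 without YFP-CTRL B (1.24% and 0.401% of all genes).
Among 11 genes of CD44 partners, ligands and sheddases, 8 were tested, 1 rose and none fell (unadjusted p under 0.05: 3 and 0; DESeq2: 1 and 0). For this and the lists that follow, the shares over all genes were 12.8% higher and 13.4% lower at that unadjusted p, and 6.18% and 6.13% with DESeq2. The gene that rose was Spp1, which encodes osteopontin, a secreted ligand of CD44 and integrins. It was at 463, 582 and 555 CPM in Meis1-OE A to C and at 116, 243 and 212 CPM in YFP-CTRL A to C, without overlap. Its log2 fold change was 1.49 with a standard error of 0.27 (adjusted p = 0.0227, edgeR), and 1.08 with the proliferation score in the fit (adjusted p = 0.103). Without single libraries it ran from 1.21 to 1.71, and it did not pass without any Meis1-OE library or without YFP-CTRL B (adjusted p up to 0.114). Srgn, a proteoglycan ligand of CD44, had a log2 fold change of 0.58 (adjusted p = 0.0857, edgeR).

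Of 11 genes that cut versican or build its side chains, 7 were tested, none rose and 1 fell (unadjusted p under 0.05: 1 and 2; DESeq2: 0 and 2). Adamts1, a secreted protease that cleaves versican, had 323, 320 and 390 CPM in Meis1-OE A to C against 615, 893 and 490 in YFP-CTRL A to C. All Meis1-OE libraries were lower, and the log2 fold change was -0.95 with a standard error of 0.22 (adjusted p = 0.0489, edgeR), close to the threshold. Of 14 alternatives, 4 kept it past the threshold. Adamts4, a related protease, was at 92.6 to 115 CPM against 134 to 305 CPM, a log2 fold change of -1.21 (adjusted p = 0.0515, edgeR; 0.00163 with DESeq2).
Of 10 genes of hyaluronan breakdown, 6 were tested and 0 passed with edgeR (unadjusted: 2 higher and 1 lower; DESeq2: 2 higher and 0 lower). Tmem2 (also called Cemip2), a surface protein reported to cut hyaluronan, was at 158, 211 and 227 CPM in Meis1-OE A to C and 46.2, 50.1 and 125 CPM in YFP-CTRL A to C. No library overlapped, and the log2 fold change was 1.43 (adjusted p = 0.0729, edgeR; 0.00299 with DESeq2). With the column letters as a replicate block it was 1.57 (adjusted p = 0.0369, edgeR), where 3.39% of all genes were higher and 1.18% lower. The YFP-CTRL levels of Tmem2 had the order of the proliferation score, and with that score in the fit the log2 fold change was 0.76 (adjusted p = 0.163, edgeR). Without YFP-CTRL C it was 2.03 (adjusted p = 0.000805, edgeR), and without any other single library it did not pass. Hyal3 had a log2 fold change of -0.69 (adjusted p = 0.175, edgeR).
Of 9 genes of precursor synthesis and the Has2 antisense, 8 were tested and 0 passed with edgeR (unadjusted: 0 higher and 1 lower; DESeq2: 0 and 1). Gnpnat1, which acetylates glucosamine phosphate, had a log2 fold change of -1.09 (adjusted p = 0.0887, edgeR; 0.0143 with DESeq2), which was -0.38 with the proliferation score in the fit (adjusted p = 0.547). Uap1, which makes UDP-GlcNAc, had 0.39 (adjusted p = 0.220, edgeR).
Of 21 other binding and matrix genes, 6 were tested and 0 passed with edgeR or DESeq2 (unadjusted with edgeR: 1 higher and 1 lower). Hmmr, a hyaluronan-binding protein of the mitotic spindle, was at 53.8 to 55.4 CPM in Meis1-OE and at 10.4, 32.6 and 52.7 CPM in YFP-CTRL A to C, the order of the proliferation score. Its log2 fold change of 0.77 (adjusted p = 0.351, edgeR) was -0.20 once that score was in the fit. Layn, a membrane hyaluronan receptor, had 0.70 (adjusted p = 0.176, edgeR).

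**Figure D4:**
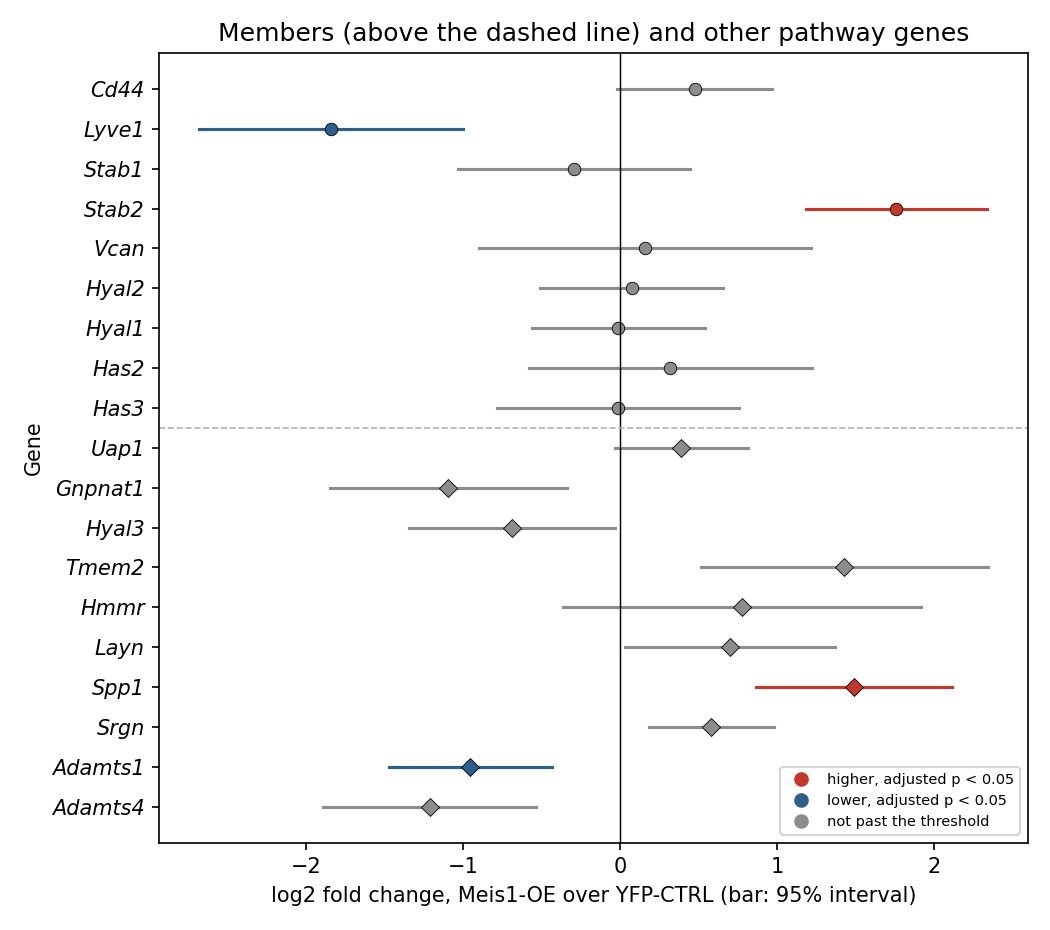
Log2 fold changes with 95% intervals from edgeR for the 9 tested genes (circles) and the 10 other pathway genes named in the text (diamonds), in red where higher and blue where lower at an adjusted p under 0.05. Stab2 and Spp1 are to the right and Lyve1 and Adamts1 to the left of 0, and Cd44 (0.47) has an interval that reaches just below 0.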

How the data were processed

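RNA was extracted from 300000 cells per library, and ribodepleted RNA-seq was done on 3 libraries of each condition. Estimated counts were deposited by the authors for each gene, not normalized, in 1 table with 6 columns, all of which were used. The submitters' processing notes name build mm10, and the aligner, counting tool, annotation and use of strand are not given in the sources used here. Counts were rounded to whole numbers (7767 to 8411 genes per library had other values). The floor of 3 counts covers counting error only, and the 95% intervals of fold changes cover the spread between libraries.

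Groups came from the sample titles. The titles number the replicates while the columns carry letters, so columns were mapped to groups only. The main test was edgeR's quasi-likelihood test (version 4.0.16 in R 4.3.3, with TMM and filterByExpr) and, as an alternative, DESeq2 1.42.0. In counts simulated with known changes, both tools called more unchanged genes than the threshold of 0.05 allows, DESeq2 more so than edgeR. Standard errors were derived from the F statistic, and intervals from them and the total degrees of freedom. Other alternatives were other scalings, filters and thresholds, a robust fit, each library left out, a proliferation covariate and a replicate block.

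The named genes were the 10 members, Meis1, each other pathway gene past the threshold, the 2 tested genes of each pathway list with the largest absolute log2 fold change, and the 5 genes most like Cd44. Members and lists were chosen with earlier results of these data known.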

Additional observations from a re-analysis of the deposited data

How the results depend on the processing

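Stab2 kept its direction under all 14 alternatives (log2 fold change 1.40 to 1.94) and passed in 12, and Lyve1 (-2.14 to -1.29) passed in 10. Cd44 stayed above 0 in all 14 (0.05 to 0.67) and passed only without YFP-CTRL C. Leaving out single libraries moved the count of genes called among the 10 between 0 and 2 higher and 0 and 2 lower, and among the other pathway genes between 0 and 6 higher and 0 and 5 lower, and it moved the share of all genes called from 6.87% to between 0.798% (without Meis1-OE B) and 31.7% (without YFP-CTRL C). The log2 fold change of Cd44 ran from 0.26 to 0.67 in these fits, Has2 from -0.020 to 0.54, Has3 from -0.13 to 0.18, Hyal1 from -0.23 to 0.23, Hyal2 from -0.19 to 0.29 and Vcan from -0.15 to 0.94. Which property of single libraries caused this was not tested.

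With the proliferation score as a covariate, 1 of the 9 tested genes was higher and 0 were lower. Of the other pathway genes, 0 were higher and 1 was lower (Adamts4, -1.69, adjusted p = 0.0260, edgeR). Over all genes, 2.32% were higher and 1.9% lower. Has3 (0.29), Hyal2 (-0.43) and Hmmr (-0.20) changed sign. In that fit Vcan, Has2, Gnpnat1 and Tmem2 had log2 fold changes of 1.11, 1.08, -0.38 and 0.76, folds that moved by over 1.5 times without a change of call. Library totals without TMM factors shifted the median of all genes by 0.14, gave 4 other pathway genes higher and 0 lower (6.52% and 1.11% of all genes), and put Has3 at 0.12 and Hyal1 at 0.14. Other pathway genes were 2 higher and 2 lower with no filter (2.38% and 1.39% of all genes), 3 and 3 with DESeq2 (6.18% and 6.13%), 1 and 0 with DESeq2's size factors (4.04% and 2.76%), and 1 and 0 with at least 10 counts in every library (3.29% and 2.56%). At an adjusted p under 0.01, 0 of the 10 genes and 0 other pathway genes passed in either direction (1.05% and 0.249% of all genes), and at 0.1 the other pathway genes were 5 higher and 3 lower (7.08% and 6.68%). The order of the 10 genes per kb was the same with the longest transcript as the length. The cause of these changes was not tested.

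With the column letter as a replicate block, 1 of the 9 tested genes was higher and 1 lower, and other pathway genes were 2 higher and 0 lower. Over all genes, 3.39% were higher and 1.18% lower in that fit. Hyal1 moved to 0.022. Cd44 had a log2 fold change of 0.52 with this block (adjusted p = 0.133, edgeR). The main test did not pair libraries by letter, as the labels do not state pairs. Deviations from the group means correlated at 0.245, 0.190 and 0.0809 for the same letter, A to C. For different letters the correlations ran from -0.301 to 0.249. Of the 3 Meis1-OE libraries, 2 correlated best with their own letter. The share of counts in the gene Gm26917 rose from A to C in both groups (8.06% to 10.5% in Meis1-OE, 11.8% to 14.1% in YFP-CTRL). Whether the letters mark pairs is thus not settled. With 16 to 90 counts per library for Has2 and Has3 and at most 4 for Has1, depth limits what can be said of the synthases.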

Other observations

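Spread among the 9 tested genes differed by condition. The coefficient of variation over 3 libraries was 5.27% to 20.7% in Meis1-OE and 24.5% to 73.7% in YFP-CTRL, and it was larger in YFP-CTRL for 9 of 9 genes, as for 79.0% of all genes tested. The median was 9.69% and 34.6% for the 9 genes, and 8.68% and 20.7% for all genes. Vcan had the largest and Has3 the smallest coefficient in YFP-CTRL.

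The genes of this paragraph were chosen from the marker lists after their values were seen. Endothelial markers measured beside Lyve1 and Stab2 did not move 1 way. Of 10 markers, 2 were higher (Vwf and Cldn5, log2 fold changes of 3.12 and 1.81, adjusted p = 0.0120 and 0.0398, edgeR) and 1 was lower (Tek, -0.78, adjusted p = 0.0351). Over all genes tested, 4.14% were called higher and 2.73% lower. DESeq2 called 2 of the 10 higher and 3 lower (Tek, Kdr and Cdh5), beside 6.18% and 6.13% of all genes. The Meis1-OE libraries were uneven for Vwf, at 24.3, 77.6 and 87.1 CPM in A to C, against 6.23 to 8.13 CPM in YFP-CTRL. Kdr, which encodes a VEGF receptor, was at -1.23 (adjusted p = 0.0504). Pdgfra, from the list of fibroblast and smooth muscle genes, had 543, 535 and 544 counts in Meis1-OE A to C and 1130, 2005 and 707 in YFP-CTRL A to C, the same order of control libraries as for Lyve1. The endothelial markers Kdr (754, 1042 and 457 CPM in YFP-CTRL A to C) and Cdh5 (2017, 2628 and 1784 CPM) had that order too. Both were lower in every Meis1-OE library. Tie1 had the order as well but overlapped between conditions, and the other endothelial markers did not have it. Eng, Emcn, Erg and Cldn5 were highest in YFP-CTRL C, Pecam1 and Tek were lowest in YFP-CTRL A, and Vwf was highest in YFP-CTRL A. How many of all genes have this order was not counted. Other genes of the fibroblast and smooth muscle list were low: Lum was at 0 in all libraries, Dcn at most at 2 and Col1a1 at most at 8, while Acta2 reached 902 counts in YFP-CTRL C. Their part in the results was not tested.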
